A study of Mus musculus with 18 samples.

Results

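The genes described here are 10 immediate-early genes that do not code for AP-1 subunits, namely Egr1, Egr2, Egr3, Nr4a1, Atf3, Ier2, Dusp1, Zfp36, Btg2 and Ier3, of 23951 genes measured in sorted mouse ear keratinocytes. They were chosen by name for what they are known for, and the rule uses no measured value, although it was set with earlier results of these data known. All 10 had a value in the files and all 10 passed the filter on low values that left 12751 genes for testing. The mice carried the mT/mG reporter, which switches a cell from Tomato (Tom) to GFP once Cre has acted, and K5-Cre-ERT, a tamoxifen-inducible Cre driven by the keratin 5 promoter of basal keratinocytes. In DKO* mice both JunB and c-Jun were floxed (JunB f/f c-Jun f/f), and such mice develop a psoriasis-like skin disease after deletion. Control mice (Co) had K5-Cre-ERT and mT/mG with wild-type (+/+) or heterozygous (+/f) JunB and c-Jun, so some Co mice may have lost 1 allele of either gene. All mice were 8 weeks old, of mixed background, and received 4 injections of 2 mg tamoxifen, Co included, and ear skin was taken at day 7. Dead cells, doublets and CD45+ cells were gated out, and CD49f high CD34+ cells were collected as bulge hair follicle stem cells (HF-SCs) and CD49f high CD34- cells as basal keratinocytes (b-KCs). Each of the 6 groups held 3 libraries. Co mice 810, 825 and 828 each gave HF-SCs and b-KCs. DKO* mice 814, 815 and 817 each gave 4 libraries, the cells that turned on GFP (mutant) and those that stayed Tom (non-mutant) in either cell type. Tom cells of DKO* mice come from diseased skin and are taken to carry the floxed alleles unrecombined. The paper reports from microscopy that only GFP cells had lost c-Jun and JunB, and the alleles were not tested in these libraries. The labels do not name a fluorescent fraction for the Co libraries.

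Immediate-early genes are transcribed within minutes of a stimulus, without new protein synthesis, when kinase cascades such as the ERK and p38 pathways activate transcription factors already bound at their promoters, among them SRF with its TCF partners and CREB. Their products are short-lived transcription factors and regulators that shut the response off again, and in skin they respond to growth factors, wounding, ultraviolet light and stress. AP-1, the dimer of Jun and Fos proteins, is itself built from products of this response, and c-Jun and JunB are the subunits deleted here. These genes are also known to respond to enzymatic dissociation of tissue, which every sample here went through before sorting, and its part in the levels below was not tested.

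All values are FPKM, fragments per kilobase of transcript scaled to the mapped reads of a library, as deposited, and the 3 values of a group are given in the order of mouse 810, 825 and 828 for Co and 814, 815 and 817 for DKO*. Counting by whole-read steps in the low values put the depth at 16525000 to 26295000 reads per library, at which 3 reads on a transcript of 1 kb correspond to 0.114 to 0.182 FPKM, far below any value of the 10 genes. The targeted genes followed the labels. Jun measured 835, 1028 and 1086 FPKM in HF-SCs of Co mice, 69.6, 88.4 and 30.4 in mutant HF-SCs and 308, 332 and 614 in non-mutant HF-SCs, and Junb was at 463, 436 and 443, 71.3, 77.5 and 38.6 and 251, 278 and 402. For b-KCs, Jun measured 876, 979.7 and 1000 with Co mice, 53.9, 65.4 and 29.6 with mutant and 163, 229 and 400.4 with non-mutant cells, and Junb was at 737, 772 and 740, 69.4, 72.2 and 37.2 and 208, 362 and 397. Both genes were lowest in the GFP fractions, and every Tom library also lay below Co of its cell type for both. Jun passed as lower than Co in Tom cells of both cell types, and Junb in those of b-KCs but not of HF-SCs. Cd34, the sorting marker, was at 640 to 889 FPKM in HF-SC Co, 161 to 228 in mutant HF-SCs, 260 to 319 in non-mutant HF-SCs and 0.341 to 2.53 in the 9 b-KC libraries. Of 8 bulge markers, Cd34 among them, 5 passed as lower in mutant HF-SCs and 7 in non-mutant HF-SCs against Co, as did 3 in mutant b-KCs and 5 in non-mutant b-KCs. Krt15 is listed at 0 in 1 HF-SC Co library and Krt14 in 3 b-KC libraries of DKO* mice, although keratinocytes use both. The summed level of 10 endothelial markers was 446 to 1480 FPKM in non-mutant HF-SCs against 53.5 to 85.9 in HF-SC Co, 1.84 to 30.8 in mutant HF-SCs and at most 11.5 in the b-KC groups. The 12 leukocyte markers summed to 13.0 to 40.1 FPKM in the DKO* groups and 3.21 to 7.71 in Co. Cxcr2 and Cd68 made up 33.4% to 90.6% of that sum in DKO* libraries and 63.5% to 71.5% in Co. Of the 6 leukocyte markers that passed the filter, 4 passed as higher in mutant HF-SCs, 3 in non-mutant HF-SCs and in mutant b-KCs and 2 in non-mutant b-KCs, which were Cxcr2 and Cd68, and none passed as lower. Fcer1g was at 1.09 to 9.40 FPKM in HF-SCs of DKO* mice, 0.143 to 1.00 in their b-KCs and at most 0.667 in Co, and Ptprc, which codes for CD45 and did not pass the filter, was at most 0.946 in HF-SCs and 0.0636 in b-KCs, both in mutant cells of mouse 817. Of 4 melanocyte markers 3 passed as higher in mutant HF-SCs, where they summed to 5.23 to 15.8 FPKM against 2.63 to 4.50 in HF-SC Co. Of 6 basal keratinocyte markers 1 passed as lower in mutant HF-SCs and 2 in each of the other DKO* groups, of which 1 in non-mutant b-KCs was Krt14 itself. Without Krt14 their sum was 4845 to 5484 FPKM in HF-SC Co, 3086 to 3892 in mutant HF-SCs and 3254 to 4480 in non-mutant HF-SCs, and 6227 to 6802 in b-KC Co, 3124 to 6305 in mutant b-KCs and 4625 to 8260 in non-mutant b-KCs. Beside all these marker counts, 18.5% to 22.6% of all genes tested passed as higher and 20% to 23.3% as lower against Co. The part of these markers in the results below was not tested.

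Egr1, Egr3 and Ier2 were not searched for motifs. Promoter windows of the other 7 of the 10 genes were taken from the RefSeq table used here (GRCm38.p6), and the 250 bases before the transcription start are considered. A window of each is shown so that the motifs of known immediate-early regulators can be compared between genes that passed as lower in both b-KC fractions (Dusp1, Zfp36, Egr2, Btg2, Atf3 and Nr4a1) and Ier3, which did not pass as lower in any DKO* group. Egr1 and Ier2, for which no window is shown, also passed as lower in both b-KC fractions. Egr2 has 5 windows in the table, of which 1 of 3 that overlap is shown, and the others have 1. Capitals mark matches to the motifs searched on both strands.
Dusp1, chr17:26508473-26508722, minus strand: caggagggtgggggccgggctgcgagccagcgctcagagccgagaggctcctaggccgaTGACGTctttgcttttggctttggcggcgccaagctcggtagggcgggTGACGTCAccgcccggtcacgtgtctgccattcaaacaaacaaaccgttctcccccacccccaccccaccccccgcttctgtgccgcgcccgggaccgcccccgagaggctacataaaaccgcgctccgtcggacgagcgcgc
Zfp36, chr7:28379229-28379478, minus strand: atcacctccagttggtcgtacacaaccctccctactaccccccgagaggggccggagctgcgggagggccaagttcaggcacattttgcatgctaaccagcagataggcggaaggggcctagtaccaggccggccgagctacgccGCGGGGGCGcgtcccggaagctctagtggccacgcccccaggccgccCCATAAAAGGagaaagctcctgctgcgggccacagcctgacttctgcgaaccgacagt
Egr2, chr10:67537619-67537868, plus strand: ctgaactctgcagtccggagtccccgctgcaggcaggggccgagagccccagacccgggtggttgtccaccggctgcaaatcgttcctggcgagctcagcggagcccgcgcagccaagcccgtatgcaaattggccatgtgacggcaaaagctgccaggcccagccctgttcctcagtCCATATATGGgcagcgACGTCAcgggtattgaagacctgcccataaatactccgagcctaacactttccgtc
Btg2, chr1:134079156-134079405, minus strand: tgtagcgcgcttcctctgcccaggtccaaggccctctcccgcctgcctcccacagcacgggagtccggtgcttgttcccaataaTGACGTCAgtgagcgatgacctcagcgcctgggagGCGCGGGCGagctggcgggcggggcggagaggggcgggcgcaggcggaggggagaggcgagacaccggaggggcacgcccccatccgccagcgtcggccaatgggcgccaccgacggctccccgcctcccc
Atf3, chr1:191183334-191183583, minus strand: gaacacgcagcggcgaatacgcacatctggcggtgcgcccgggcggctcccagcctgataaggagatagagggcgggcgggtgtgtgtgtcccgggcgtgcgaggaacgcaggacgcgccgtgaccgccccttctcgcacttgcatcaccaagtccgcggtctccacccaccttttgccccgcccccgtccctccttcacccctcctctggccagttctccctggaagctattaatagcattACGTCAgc
Nr4a1, chr15:101266596-101266845, plus strand: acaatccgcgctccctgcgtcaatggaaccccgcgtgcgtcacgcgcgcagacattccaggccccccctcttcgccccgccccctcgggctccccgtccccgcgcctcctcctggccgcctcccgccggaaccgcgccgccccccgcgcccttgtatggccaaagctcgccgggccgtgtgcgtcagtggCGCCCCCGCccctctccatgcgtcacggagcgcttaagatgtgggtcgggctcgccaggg
Ier3, chr17:35821463-35821712, plus strand: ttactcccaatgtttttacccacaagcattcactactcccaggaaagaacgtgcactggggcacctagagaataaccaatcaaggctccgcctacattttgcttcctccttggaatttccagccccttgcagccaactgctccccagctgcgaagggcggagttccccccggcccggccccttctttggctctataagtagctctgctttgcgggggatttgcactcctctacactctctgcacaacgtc
The CREB motif TGACGTCA lies from -143 to -136 in Dusp1 and from -166 to -159 in Btg2, counted from the start, and 1.77% of 27025 genes hold it in a window. Its shorter form ACGTCA, which lies within TGACGTCA on both strands, is found in 4 of the 7 genes, namely Dusp1, Btg2, Egr2 and Atf3, and in 7.29% of genes. A CArG box, the motif that SRF binds, lies from -58 to -49 in Zfp36 and from -72 to -63 in the Egr2 window shown, and 1.62% of genes hold one. Of the 5 Egr2 windows 4 hold a CArG box, 3 hold ACGTCA and 1 holds no match. The EGR motif GCGNGGGCG is found in Zfp36, Btg2 and Nr4a1 and in 5.33% of genes. The AP-1 motif TGANTCA, held by 7.82% of genes, is not among these letters in any of the 7 genes, and Ier3 matches none of the 5 motifs. Such matches describe the sequence and say nothing of binding.

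**Figure D1:**
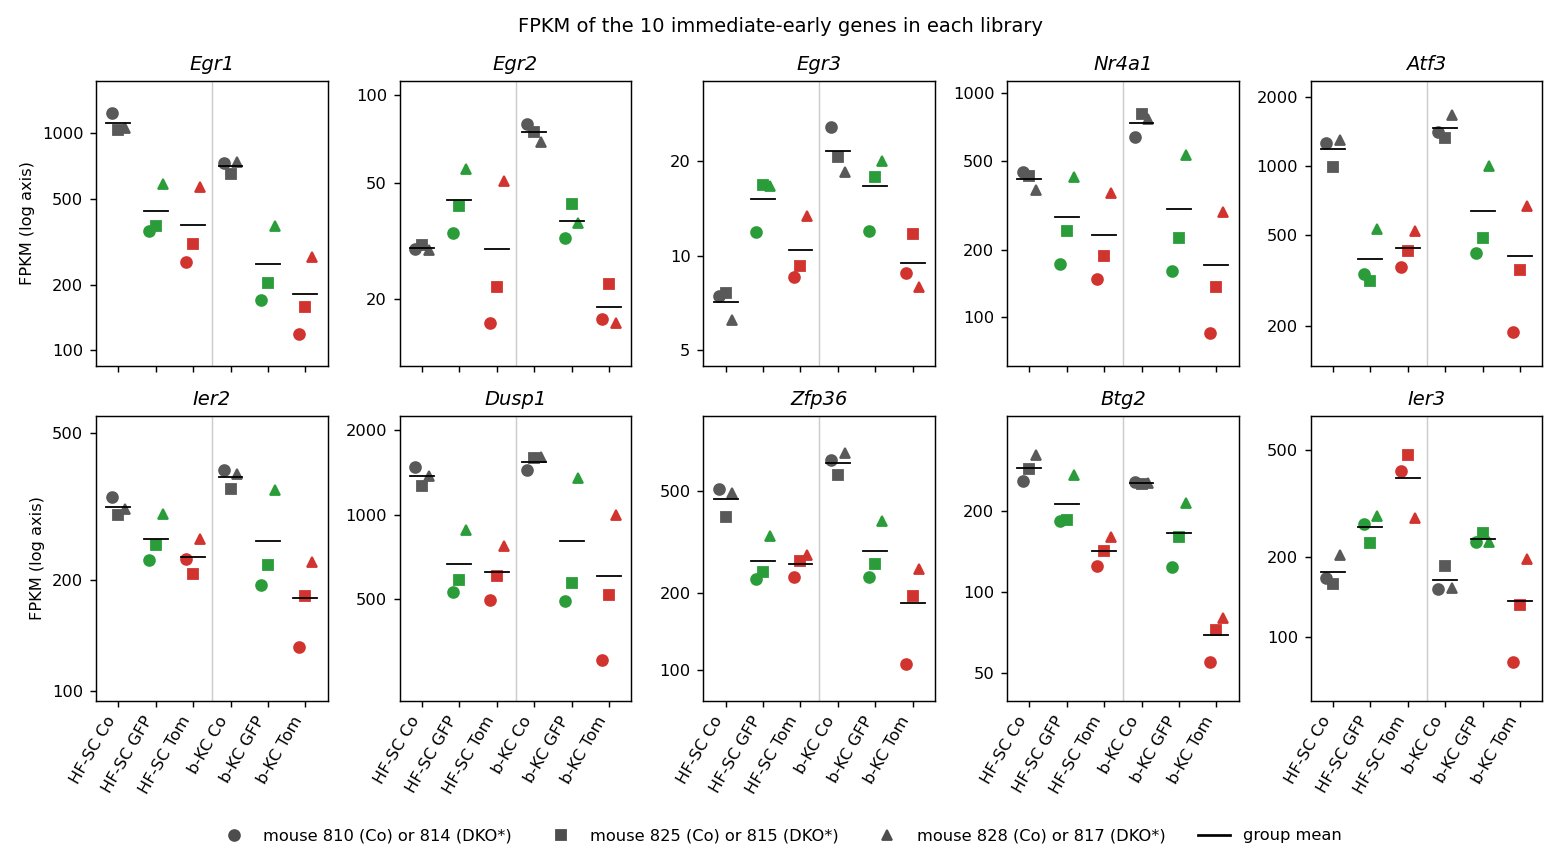
FPKM on a log axis of each of the 10 genes in 6 groups of 3 libraries, with a point for each mouse and a bar at the group mean. Co libraries lie close together, those of DKO* mice spread more with mouse 817 mostly on top, and Egr2, Egr3 and Ier3 depart from the pattern of the other genes.

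Egr1, Egr2 and Egr3 code for zinc finger transcription factors of 1 family that bind the same GC-rich motif. Egr1 (NCBIM37 chromosome 18, 35020861 to 35024638, plus strand) measured 1241, 1035 and 1053 FPKM in HF-SCs of Co mice, 356, 374 and 586 in mutant HF-SCs and 256, 309 and 562 in non-mutant HF-SCs. Among b-KCs, Co libraries reached 727, 648 and 737 FPKM, mutant ones 171, 205 and 375 and non-mutant ones 119, 159 and 269.8. Every DKO* library lay below every Co library of its cell type, and Egr1 was the gene of the 10 with the lowest mean in DKO* relative to Co in non-mutant HF-SCs. The mean was 2.53-fold lower in mutant HF-SCs than in Co, 2.95-fold lower in non-mutant HF-SCs, 2.81-fold lower in mutant b-KCs and 3.86-fold lower in non-mutant b-KCs. On the log2(FPKM + 1) scale the changes were -1.37 ± 0.34, adjusted p = 0.00534 in mutant HF-SCs (± SE, limma with Benjamini-Hochberg adjustment over all genes tested) and -1.64 ± 0.34, adjusted p = 0.00129 in non-mutant HF-SCs. For b-KCs these were -1.57 ± 0.34, adjusted p = 0.00245 (GFP) and -2.02 ± 0.34, adjusted p = 0.00027 (Tom). Without mouse 815 the change in mutant HF-SCs missed the threshold of 0.05 with an adjusted p of 0.0527. Exons of Egr1 overlap those of Gm17507 in the annotation, and without strand information the reads of the pair cannot be told apart.

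Egr2 (chromosome 10, 66998223 to 67004936, plus strand) behaved differently in the 2 cell types. The b-KC levels were 79.7, 74.9 and 68.8 FPKM for Co, 32.4, 42.2 and 36.3 for mutant cells and 17.1, 22.6 and 16.6 for non-mutant cells, and the 3 groups did not overlap. The mean fell 2.01-fold in mutant b-KCs (-1.0 ± 0.29, adjusted p = 0.0124) and 3.97-fold in non-mutant b-KCs (-1.94 ± 0.29, adjusted p = 8.41e-05). HF-SCs held 29.7, 30.7 and 29.5 FPKM in Co mice, 33.6, 41.8 and 56.0 as mutant cells and 16.6, 22.0 and 50.9 as non-mutant cells. All 3 GFP libraries lay above Co without passing the test, and the Tom libraries of mice 814 and 815 lay below Co while that of 817 lay above it. Without mouse 817, Egr2 passed as lower in non-mutant HF-SCs than in Co, with an adjusted p of 0.00453.

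Egr3 (chromosome 14, 70477252 to 70479964, plus strand), the least abundant of the 10, also behaved differently in the 2 cell types, though not in the same groups as Egr2. HF-SCs held 7.44, 7.62 and 6.26 FPKM in Co mice, 11.9, 16.7 and 16.6 as mutant cells and 8.56, 9.28 and 13.3 as non-mutant cells, with all 6 DKO* libraries above all 3 Co libraries. The mean was 2.12-fold higher in mutant HF-SCs (0.98 ± 0.21, adjusted p = 0.00181), and the difference in non-mutant HF-SCs did not pass, except without mouse 814 (adjusted p = 0.0374). b-KCs of Co mice held 25.6, 20.6 and 18.4 FPKM, mutant b-KCs 12.0, 17.8 and 20 and non-mutant b-KCs 8.82, 11.7 and 7.93. The Tom libraries lay below Co, with a mean 2.27-fold lower (-1.10 ± 0.21, adjusted p = 0.000652), while the GFP libraries overlapped Co and passed as lower only without mouse 817 (adjusted p = 0.0349).

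Nr4a1 (chromosome 15, 101097277 to 101105223, plus strand) codes for an orphan nuclear receptor. b-KCs of Co mice held 640.4, 811 and 771 FPKM, mutant b-KCs 160.4, 226 and 529 and non-mutant b-KCs 85.0, 136 and 294. Its mean fell 2.43-fold in mutant b-KCs (-1.46 ± 0.47, adjusted p = 0.0226) and 4.31-fold in non-mutant b-KCs (-2.28 ± 0.47, adjusted p = 0.00125), which was the largest log2 change of the 10 genes in any comparison. HF-SCs held 446, 427 and 369 FPKM in Co mice, 173, 244 and 424 as mutant cells and 149, 187 and 360.2 as non-mutant cells. Mouse 817 was close to Co in HF-SCs and the other DKO* mice were below it, and neither fraction passed. Non-mutant HF-SCs passed as lower with the mouse as a random block (adjusted p = 0.0467), and without mouse 817 both mutant HF-SCs and non-mutant HF-SCs did, with adjusted p of 0.00242 and 0.000294. The call in mutant b-KCs was lost without mouse 814, 815, 825 or 828, with adjusted p from 0.0704 to 0.137.

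Atf3 (chromosome 1, 192994175 to 193007219, minus strand) codes for a transcription factor of the ATF/CREB family that is also raised in the integrated stress response. It measured 1262, 989 and 1294 FPKM in HF-SCs of Co mice, 338, 316 and 529 in mutant HF-SCs and 363, 426 and 522 in non-mutant HF-SCs. The mean fell 3-fold in GFP (-1.61 ± 0.39, adjusted p = 0.00414), the largest fall of the 10 in that comparison, and 2.7-fold in Tom (-1.44 ± 0.39, adjusted p = 0.00746). Among b-KCs, Co libraries reached 1407, 1324 and 1674 FPKM, mutant ones 418, 485 and 1002 and non-mutant ones 188, 350.2 and 670.1. The groups did not overlap Co here either, with a mean 2.31-fold lower in GFP (-1.31 ± 0.39, adjusted p = 0.0144) and 3.64-fold lower in Tom (-2.04 ± 0.39, adjusted p = 0.000662). The call in mutant b-KCs was lost without mouse 815 (adjusted p = 0.114) or 828 (adjusted p = 0.0664).

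Ier2 (chromosome 8, 87185230 to 87186751, minus strand), which codes for a short nuclear regulator of transcription, moved less. It measured 336, 299 and 311 FPKM in HF-SCs of Co mice, 226, 248 and 303 in mutant HF-SCs and 228, 207 and 259 in non-mutant HF-SCs, and neither fraction passed, although both passed as lower without mouse 817 (adjusted p of 0.0363 and 0.00806). The b-KC levels were 397, 354 and 388 FPKM for Co, 194, 220.1 and 350.3 for mutant cells and 132, 181 and 225 for non-mutant cells. Both fractions lay below Co, with a mean 1.49-fold lower in GFP (-0.62 ± 0.22, adjusted p = 0.0312) and 2.12-fold lower in Tom (-1.11 ± 0.22, adjusted p = 0.000756). The GFP call was lost when mouse 810, 814, 815, 825 or 828 was left out, with adjusted p from 0.065 to 0.185, and in a fit of only the groups compared (adjusted p = 0.0622).

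The remaining 4 genes code for regulators that act on signalling, RNA or cell survival. Dusp1 (chromosome 17, 26642535 to 26645464, minus strand), a phosphatase that inactivates MAP kinases, measured 1479, 1264 and 1372 FPKM in HF-SCs of Co mice, 528, 586 and 883 in mutant HF-SCs and 497, 607 and 775 in non-mutant HF-SCs. b-KCs of Co mice held 1436, 1584 and 1599 FPKM, mutant b-KCs 493, 572 and 1351 and non-mutant b-KCs 305, 518 and 997. No DKO* library reached the Co libraries of its cell type, and mutant b-KCs of mouse 817 came closest. The log2 changes were -1.07 ± 0.40, adjusted p = 0.0419 in mutant HF-SCs and -1.15 ± 0.40, adjusted p = 0.0276 in non-mutant HF-SCs. For b-KCs these were -1.08 ± 0.40, adjusted p = 0.0383 (GFP) and -1.51 ± 0.40, adjusted p = 0.00597 (Tom). Leaving out any mouse other than 817 ended the first 3 of these calls, with adjusted p from 0.0736 to 0.172 in mutant HF-SCs, 0.0521 to 0.11 in non-mutant HF-SCs and 0.0789 to 0.216 in mutant b-KCs. Testing without the filter ended those in mutant HF-SCs (adjusted p = 0.0757) and mutant b-KCs (adjusted p = 0.0737), and a fit of only the groups compared also ended that in mutant b-KCs (adjusted p = 0.0564).

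Zfp36 (chromosome 7, 29161803 to 29164274, minus strand) codes for tristetraprolin, which binds AU-rich elements and speeds the decay of cytokine mRNAs such as that of TNF. It measured 508, 397 and 491 FPKM in HF-SCs of Co mice, 226, 241 and 333 in mutant HF-SCs and 229.6, 265 and 279 in non-mutant HF-SCs. Among b-KCs, Co libraries reached 658, 577 and 700.4 FPKM, mutant ones 230.4, 259 and 383 and non-mutant ones 106, 194 and 247. All DKO* libraries were below all Co libraries of the cell type, by a mean of 1.75-fold in mutant HF-SCs (-0.82 ± 0.27, adjusted p = 0.0239) and 1.8-fold in non-mutant HF-SCs (-0.84 ± 0.27, adjusted p = 0.0179). In b-KCs the mean was 2.22-fold lower in GFP (-1.18 ± 0.27, adjusted p = 0.00301) and 3.54-fold lower in Tom (-1.90 ± 0.27, adjusted p = 5.54e-05). Without mouse 810, 815 or 828 the calls in HF-SCs were lost, with adjusted p from 0.0869 to 0.13 in GFP and 0.0679 to 0.0766 in Tom.

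Btg2 (chromosome 1, 135971747 to 135975697, minus strand), an antiproliferative gene and p53 target whose product recruits the CCR4-NOT deadenylase, measured 258, 287 and 321 FPKM in HF-SCs of Co mice, 183, 184 and 272 in mutant HF-SCs and 124, 142 and 160.3 in non-mutant HF-SCs. The b-KC levels were 255, 252 and 254 FPKM for Co, 123, 159.8 and 214 for mutant cells and 55.1, 72.3 and 80.2 for non-mutant cells. In both cell types Tom lay below GFP in every library. The mean fell 2.03-fold in non-mutant HF-SCs (-1.02 ± 0.20, adjusted p = 0.000903) and 3.67-fold in non-mutant b-KCs (-1.88 ± 0.20, adjusted p = 6.59e-06), the smallest p-value of the 10 genes in the latter comparison. It fell 1.53-fold in mutant b-KCs (-0.65 ± 0.20, adjusted p = 0.0198), a call lost without mouse 810, 814, 815, 825 or 828 (adjusted p from 0.0545 to 0.106). Mutant HF-SCs overlapped Co and passed as lower only with the mouse as a random block (adjusted p = 0.0499) or without mouse 817 (adjusted p = 0.00338).

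Ier3 (chromosome 17, 35958629 to 35959868, plus strand), also known as IEX-1 and linked to apoptosis control and NF-kappaB signalling, was the 1 gene of the 10 that did not pass as lower in any DKO* group. It measured 167, 158 and 203 FPKM in HF-SCs of Co mice, 266, 226 and 285 in mutant HF-SCs and 420.4, 480.1 and 279.8 in non-mutant HF-SCs. Every DKO* HF-SC library was above Co, and the mean was 2.24-fold higher in non-mutant HF-SCs (1.13 ± 0.26, adjusted p = 0.00224). b-KCs of Co mice held 152, 184 and 153 FPKM, mutant b-KCs 226, 246 and 228 and non-mutant b-KCs 81.1, 132 and 197. GFP lay above Co and Tom overlapped it, and neither passed. In a fit of only the groups compared, Ier3 passed as higher in mutant HF-SCs (adjusted p = 0.0325) and mutant b-KCs (adjusted p = 0.014), and without mouse 817 it passed as higher in both (adjusted p of 0.0499 and 0.0287) and as lower in non-mutant b-KCs (adjusted p = 0.0115). The non-mutant HF-SC libraries high in Ier3 were also those high in the summed endothelial markers, at 1480 FPKM in mouse 814, 1421 in 815 and 446 in 817. All 10 endothelial markers passed as higher there against Co, none of them is listed at 0 in all non-mutant HF-SC libraries, and their part in the Ier3 level was not tested. In bulk samples like these, a change in the number of cells that express a gene and a change in RNA per cell cannot be told apart.

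Against Co, most of the 10 genes were lower in b-KCs, whereas in HF-SCs about as many passed as did not. Of the 10, 9 passed as lower in non-mutant b-KCs, where 23.3% of all genes tested did, and 8 in mutant b-KCs, against 21.3%, while 0 passed as higher in either (22.6% and 20.3% of genes tested), also at an unadjusted p under 0.05 (26.1% and 24.5%). For non-mutant HF-SCs 5 passed as lower, against 22.1%, and Ier3 as higher, against 22.3%. For mutant HF-SCs 4 passed as lower, against 20%, and Egr3 as higher, against 18.5%. The median log2 change of the 10 genes was -1.89 in non-mutant b-KCs, -1.04 in mutant b-KCs, -0.89 in non-mutant HF-SCs and -0.56 in mutant HF-SCs, and that of all genes tested was between -0.05 and -0.02. Libraries lay wholly below Co for 9 genes in non-mutant b-KCs (34% of all genes tested), 8 in mutant b-KCs (31%), 7 in non-mutant HF-SCs (24.6%) and 4 in mutant HF-SCs (28%). They lay wholly above Co for 0, 1, 2 and 3 genes in the same order (31.6%, 28%, 24.4% and 24.7% of genes tested). By role, of the 6 transcription regulators (the EGR genes, Nr4a1, Atf3 and Ier2) 6 fell in non-mutant b-KCs, 5 in mutant b-KCs and 2 in each HF-SC fraction. Of the 4 others 3 fell in each b-KC fraction and in non-mutant HF-SCs, and 2 in mutant HF-SCs. The shares in mutant HF-SCs at an adjusted p under 0.01 were 3 of the 10 against 25.4% of genes tested, in non-mutant HF-SCs 4 against 29.6%, in mutant b-KCs 2 against 24.5% and in non-mutant b-KCs 9 against 30.8%. A log2 change of at least 2 in addition left 3 genes in non-mutant b-KCs, namely Nr4a1, Atf3 and Egr1, against 2.75% of genes tested, and 0 in mutant b-KCs, non-mutant HF-SCs and mutant HF-SCs, against 1.87%, 4.09% and 3.07%. The GFP and Tom fractions share their Co libraries and their mice, so these counts are not independent of each other. Leaving out a mouse moved these counts and the share of all genes passing in either direction together. In mutant b-KCs the count went from 8 (41.6% of all genes tested) to 3 without mouse 815 (20.5%) or 828 (27.2%), to 4 without 814 (29%) or 825 (29.4%), to 5 without 810 (34%) and to 10 without 817 (59.4%). That in mutant HF-SCs went from 5 (38.5%) to 2 without 815 (25.8%), to 3 without 810 (31.3%) or 828 (28%) and to 9 without 817 (51.5%). That in non-mutant HF-SCs went from 6 (44.4%) to 9 without 817 (59.4%) and to 4 without 810 (37.6%), 815 (31%) or 828 (33.3%). Non-mutant b-KCs stayed at 9 or 10 whichever mouse was left out, where 30% to 57.6% of all genes passed.

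**Figure D2:**
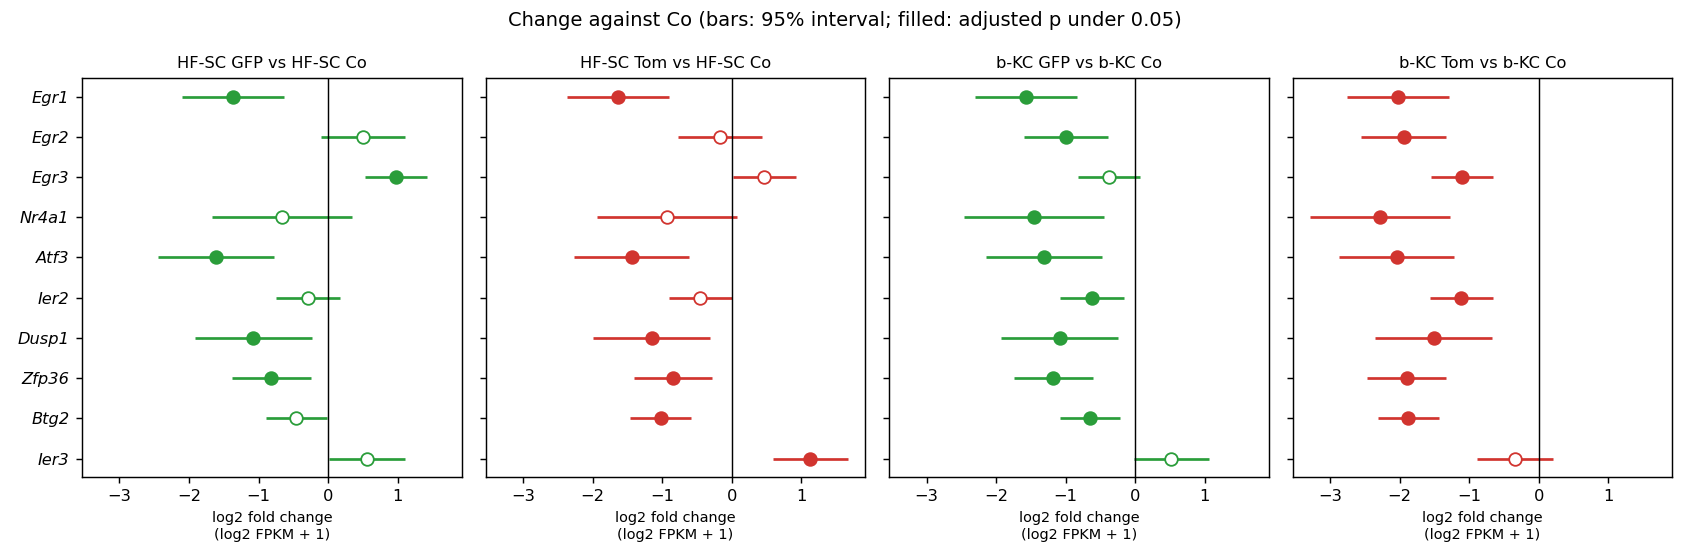
Log2 fold change against Co of each of the 10 genes in the 4 DKO* groups, from limma on log2(FPKM + 1), with 95% intervals and filled points where the adjusted p was under 0.05. In b-KC Tom 9 points are filled below 0, in b-KC GFP 8, in HF-SC Tom 5 and in HF-SC GFP 4, and the filled points above 0 are Egr3 in HF-SC GFP and Ier3 in HF-SC Tom.

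Summed over the 10 genes, Co libraries held 4895 to 5734 FPKM in HF-SCs and 5778 to 6365 in b-KCs, or 1.36% to 1.47% and 1.20% to 1.38% of all FPKM. The sums were 2341 to 3687 in mutant HF-SCs, 2292 to 3263 in non-mutant HF-SCs, 2061 to 4488 in mutant b-KCs and 1096 to 3003 in non-mutant b-KCs, each below every Co library of either cell type. By mean over the 18 libraries Dusp1 ranked 45 of 23951 genes, Atf3 58 and Egr1 108, while Egr2 ranked 2357 and Egr3 5607. The DKO* mice differed among themselves. Mouse 817 was the highest of the 3 in 34 of the 40 combinations of gene and DKO* group and mouse 814 the lowest in 34, or 85% each, while over all genes tested mouse 817 was highest in 40% of combinations and lowest in 40%, and mouse 814 lowest in 36.3%. In all 4 DKO* groups mouse 817 was highest for 7 of the 10 genes and for 12.8% of genes tested. For example, Dusp1 spanned 493, 572 and 1351 FPKM in mutant b-KCs. The same order was not particular to these genes, as mouse 817 was also highest in all 4 groups for 5 of 6 basal keratinocyte markers. It was so for 1 of 8 bulge markers and 1 of 6 leukocyte markers tested, close to the 12.8% of all genes. Mouse 817 was lowest in all 4 for 6 of 10 endothelial markers, against 11.6% of genes tested. The part of these markers in the order of the mice was not tested.

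**Figure D3:**
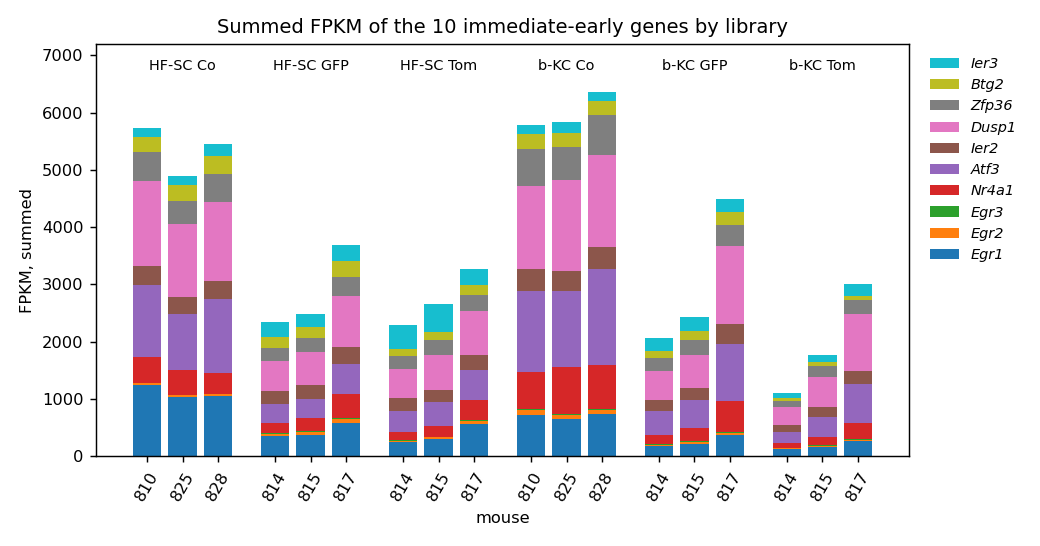
Stacked FPKM of the 10 genes in each library, one bar per mouse within 6 groups. Co bars reach 4895 to 6365 FPKM and DKO* bars 1096 to 4488, with mouse 817 the tallest in each DKO* group.

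Mutant GFP and non-mutant Tom cells of the same mice were then compared, which sets cells that lost c-Jun and JunB beside neighbours taken to have kept them. In b-KCs all 10 genes were higher in GFP than in Tom in 3 of 3 mice, as were 20.1% of all genes tested, although only Btg2 passed, with a mean 2.39-fold higher (1.23 ± 0.20, adjusted p = 0.00622), where 1.19% of all genes tested passed as higher and 0.518% as lower. Libraries did not overlap for 4 genes, Btg2, Egr2, Egr3 and Ier3, all higher in GFP as for 8.48% of genes tested, and for none lower in GFP, which 7.35% were. No gene of the 10 reached a log2 difference of 2 with an adjusted p under 0.01, as 0.0863% did. The median log2 difference of the 10 genes was 0.73, against -0.01 for all genes. With the mouse as a random block, where 4.82% of all genes tested passed in either direction, Egr2 and Egr3 passed too (adjusted p of 0.0362 and 0.0215). With the mouse as a fixed block, where 3.72% did, Egr2 and Nr4a1 passed too (adjusted p of 0.0214 and 0.0332). Btg2 no longer passed without mouse 815 (adjusted p = 0.203) or in a fit of only these groups (adjusted p = 0.147), where 0.00784% and 0.0235% of all genes tested passed. Without mouse 817, where 6.67% did, Egr2 and Ier3 passed beside Btg2 (adjusted p of 0.00783 and 0.00384).

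In HF-SCs none of the 10 genes passed in limma between GFP and Tom, where 2.83% of all genes tested passed as higher and 5.8% as lower, and 4 had an unadjusted p under 0.05, with Btg2, Egr2 and Egr3 higher (9.17% of genes tested) and Ier3 lower in GFP (10.8%). GFP was higher in 3 of 3 mice for Egr1, Egr2, Egr3, Nr4a1 and Btg2 (20.6% of genes tested), in 2 for Ier2 and Dusp1 and in 1 for Atf3, Zfp36 and Ier3. Btg2 was the 1 gene whose libraries did not overlap, on the high side as for 8.41% of genes tested (10.2% on the low side). It passed with the mouse as a random block (adjusted p = 0.0193), where 13.6% of all genes tested passed in either direction. Without mouse 817 Egr2 passed as higher (adjusted p = 0.00144) and Ier3 as lower in GFP (adjusted p = 0.00883), where 22.9% of all genes tested passed in either direction. The median log2 difference was 0.21, against 0.02 for all genes.

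**Figure D4:**
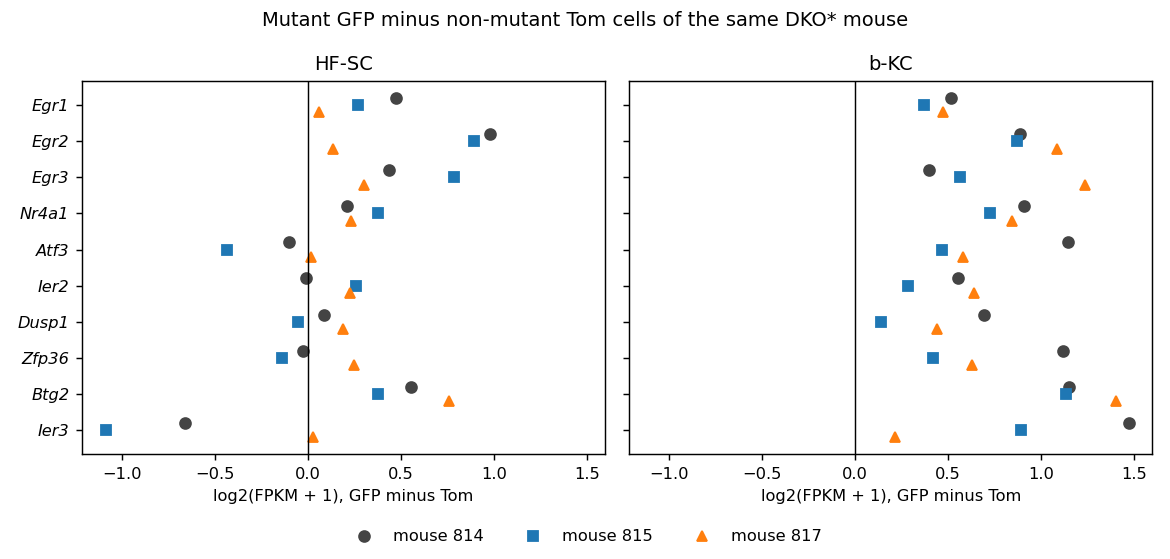
Difference in log2(FPKM + 1) between mutant GFP and non-mutant Tom cells of the same DKO* mouse for each of the 10 genes, in HF-SCs and b-KCs, with a point for each mouse. In b-KCs every point lies above 0, while in HF-SCs Atf3, Ier2, Dusp1, Zfp36 and Ier3 have points on both sides.

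The 2 cell types were compared in Co mice first. Egr2 was 2.48-fold lower in HF-SC Co than in b-KC Co (-1.28 ± 0.29, adjusted p = 0.00157) and Egr3 3.03-fold lower (-1.46 ± 0.21, adjusted p = 3.18e-05), and these were the 2 genes that passed, where 27.3% of all genes tested passed as lower and 24.6% as higher. Neither reached a log2 difference of 2 with an adjusted p under 0.01, as 5.65% did. With the mouse as a random block Egr1 passed as higher in HF-SCs (adjusted p = 0.0219) and Nr4a1 as lower (adjusted p = 0.029), which brought the count to 4, where 60% of all genes passed in either direction against 51.9% without the block. With the mouse as a fixed block, where 66.9% of all genes passed, Zfp36 was lower too (adjusted p = 0.0211). Libraries did not overlap for 6 genes lower in HF-SC Co, among them Atf3, Ier2 and Zfp36 (37.4% of genes tested), and for Btg2 and Egr1 on the high side (32.2%). In the order of the 6 group means, b-KC Co was highest for 7 genes, HF-SC Co for Egr1 and Btg2, and non-mutant HF-SCs for Ier3, and non-mutant b-KCs were lowest for 8. For Dusp1 all neighbours in that order overlapped. For Egr1 HF-SC Co and b-KC Co each stood clear of the next group, and the 4 DKO* groups overlapped their neighbours. Of the markers tested, 7 of 8 bulge, 9 of 10 endothelial, 5 of 5 fibroblast, 2 of 6 leukocyte and 1 of 4 melanocyte markers passed as higher in HF-SC Co than in b-KC Co. None of 6 basal keratinocyte or 2 mural markers did, against 24.6% of all genes tested. The part of these markers in the differences between the cell types was not tested.

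The difference between the cell types in the change against Co was tested as an interaction. For Egr2 the log2 change in GFP was more positive for HF-SCs than for b-KCs by 1.50 ± 0.41, adjusted p = 0.024, and for Egr3 by 1.35 ± 0.30, adjusted p = 0.00781, and these were 2 of 10 genes where 7.31% of all genes tested passed in this direction and 5.22% in the other. At an adjusted p under 0.01 Egr3 alone passed, against 5.21% of genes tested. In Tom the differences were 1.78 ± 0.41, adjusted p = 0.00715 for Egr2, 1.58 ± 0.30, adjusted p = 0.00183 for Egr3 and 1.47 ± 0.36, adjusted p = 0.0112 for Ier3, where 10.3% of genes tested passed in this direction and 5.58% in the other. None of these differences reached 2 with an adjusted p under 0.01, against 0.863% of genes tested in GFP and 1.98% in Tom. Egr2 and Egr3 also started lower in HF-SC Co, whereas Ier3 was at 176 ± 24.0 FPKM (mean ± SD) in HF-SC Co and 163 ± 18.2 in b-KC Co. With the mouse as a random block the count in Tom went from 3 (15.8% of all genes tested in either direction) to 7 (23.9%), as Btg2, Ier2, Nr4a1 and Zfp36 passed with adjusted p of 0.00793, 0.0469, 0.0344 and 0.013, and the same 4 passed without mouse 817 (25.4% of all genes), with adjusted p of 0.00883, 0.018, 0.00416 and 0.00807. In GFP Egr2 was lost without mouse 810, 815, 825 or 828 (adjusted p from 0.0774 to 0.106) and Egr3 without 815 (adjusted p = 0.0616). Without mouse 817, where 30.8% of all genes passed in either direction, Nr4a1 passed in GFP (adjusted p = 0.0418). In Tom Ier3 was lost without mouse 814, 815 or 825 (adjusted p from 0.063 to 0.101).

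**Figure D5:**
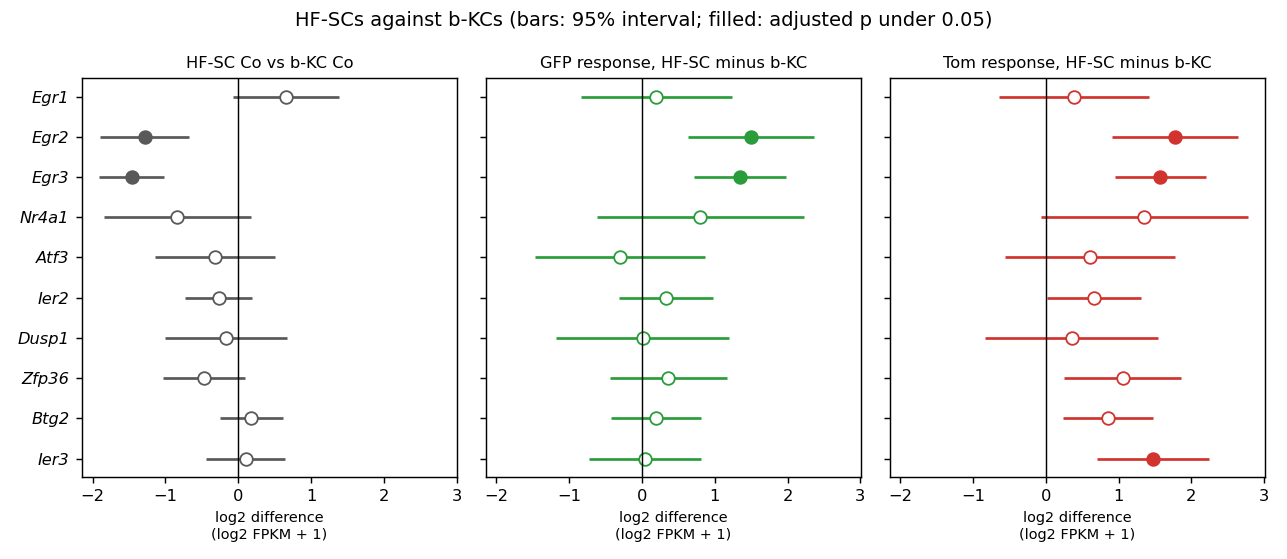
Log2 difference between HF-SCs and b-KCs in Co, and the difference of the GFP and Tom changes against Co between the 2 cell types, for each of the 10 genes with 95% intervals, filled where the adjusted p was under 0.05. Egr2 and Egr3 are filled in all 3 panels, below 0 in Co and above 0 in both interactions, and Ier3 is filled in that of Tom.

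Across the 18 libraries the 10 genes ran together to different degrees, described by Pearson's r of log2(FPKM + 1) with the mean of the other 9, over libraries that share mice and include both genotypes. It was 0.98 for Ier2, 0.96 for Zfp36, 0.95 for Nr4a1, 0.90 for Dusp1, 0.88 for Btg2, 0.87 for Atf3, 0.82 for Egr1, 0.71 for Egr2, 0.34 for Egr3 and -0.02 for Ier3. The genes outside the 10 with the highest r to their mean were Rnf39 (0.963), Mafk (0.960), Tppp (0.952), Sertad1 (0.951) and Tppp3 (0.945).

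Other genes of the early response were taken from lists of known members, whose counts stand beside the shares of all genes tested, of which 23.3% passed as lower and 22.6% as higher in non-mutant b-KCs, 21.3% and 20.3% in mutant b-KCs, 22.1% and 22.3% in non-mutant HF-SCs and 20% and 18.5% in mutant HF-SCs. Of the 7 AP-1 genes, which include the deleted Jun and Junb, 7 passed as lower in non-mutant b-KCs, 6 in mutant b-KCs, 5 in mutant HF-SCs and 4 in non-mutant HF-SCs. Fos was lower in all 4 DKO* groups, by log2 changes of -1.28 in mutant HF-SCs, -1.66 in non-mutant HF-SCs, -1.69 in mutant b-KCs and -2.19 in non-mutant b-KCs. Of 18 other early transcription factors 12 passed as lower and 1 as higher in non-mutant b-KCs, 9 and 3 in mutant b-KCs, 5 and 3 in non-mutant HF-SCs and 6 and 5 in mutant HF-SCs. Klf2 and Klf6, Krüppel-like factors, had the largest falls in non-mutant b-KCs (-2.25 and -2.21), mutant b-KCs (-1.81 and -1.71) and mutant HF-SCs (-1.55 and -1.45). For non-mutant HF-SCs Klf6 fell too (-0.97), whereas Klf2, which endothelial cells also express, had a log2 change of 0.99 that did not pass (adjusted p = 0.114). Bhlhe40, a transcriptional repressor of the clock and stress response, rose in mutant HF-SCs (1.39) and non-mutant HF-SCs (1.11) and fell in non-mutant b-KCs (-0.57). Of 31 early effectors 21 passed as lower and 1 as higher in non-mutant b-KCs, 16 and 3 in mutant b-KCs, 3 and 7 in non-mutant HF-SCs and 6 and 6 in mutant HF-SCs, the last of which are close to the shares of all genes. Ctgf, a matricellular target of SRF and YAP, had a log2 change of -3.06 in non-mutant b-KCs, -2.69 in non-mutant HF-SCs, -2.61 in mutant HF-SCs and -1.28 in mutant b-KCs, and Arc rose by 3.03 in mutant HF-SCs and 2.04 in non-mutant HF-SCs. Dusp2, a phosphatase for MAP kinases, rose by 2.22 in non-mutant HF-SCs, the group with the highest endothelial markers.

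Of 23 upstream kinases and factors 5 passed as higher and 2 as lower in mutant HF-SCs, 6 and 2 in non-mutant HF-SCs, 2 and 5 in mutant b-KCs and 5 and 4 in non-mutant b-KCs, against the same shares of all genes. Map2k1, which codes for the kinase MEK1, rose by 1.36 in mutant HF-SCs, 0.56 in non-mutant HF-SCs, 1.60 in mutant b-KCs and 0.98 in non-mutant b-KCs, and Mkl2, which codes for an SRF coactivator, fell by 0.94 in mutant b-KCs and 0.65 in non-mutant b-KCs. Of 10 genes of the integrated stress response, in which Atf3 is a known target, 7 passed as higher and 0 as lower in mutant HF-SCs, 6 and 0 in non-mutant HF-SCs and in mutant b-KCs, and 6 and 1 in non-mutant b-KCs, where 18.5% to 22.6% of all genes passed as higher and 20% to 23.3% as lower. Slc7a11, the cystine transporter, rose most in each, by 4.58, 3.38, 2.92 and 3.18, in samples where Atf3 was lower than in Co. Of 10 p53 targets 4 passed as higher and 1 as lower in mutant HF-SCs, 2 and 2 in non-mutant HF-SCs, 3 and 1 in mutant b-KCs and 0 and 5 in non-mutant b-KCs, where Cdkn1a, which codes for the cell cycle inhibitor p21, fell by 1.62, while it rose by 0.89 in mutant HF-SCs. The p53 counts in non-mutant HF-SCs are close to the shares of all genes. Of 8 heat shock genes at most 3 passed as higher and 2 as lower in any of these comparisons, against the same shares of all genes, and their sum was 1298 to 1428 FPKM in b-KC Co, 1813 to 1919 in mutant b-KCs, 1453 to 1851 in non-mutant b-KCs and 1119 to 1493 over all HF-SC libraries.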

How the data were processed

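RNA of FACS-sorted ear skin cells (18 libraries, 3 mice in each of 6 groups) was sequenced by the authors with SMART-Seq v4 and Nextera XT without strand information, aligned with TopHat 2.0.10 and Bowtie 1.0.0 to NCBI37/mm9, and quantified with Cufflinks 2.2.1 per the submitters' processing notes. Multihits were allowed. The values deposited by the authors are FPKM, 1 per gene and library, scaled by transcript length and by library size, and no column was left unused.

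The 12751 of 23951 genes that reached 1 FPKM in 3 or more libraries entered limma (3.58.1, R 4.3.3, eBayes with trend) on log2(FPKM + 1) with 6 group means fitted together and Benjamini-Hochberg adjustment within each comparison. All tests are two-sided, a gene passed at an adjusted p under 0.05, and a log2 change on this scale understates that of low genes. P-values rest on the spread between libraries within groups, pooled over the 6 groups and moderated across genes. The main fit treated libraries of the same mouse as independent. Groups differed in spread. For Dusp1 the SD was 5.84% of the mean in b-KC Co and 58.9% in b-KC GFP. For Ier3 it was 11.1% and 4.60%. The script was tested on simulated data. Groups come from the sample labels. The same mouse number marks 1 animal, and deviations from the group means correlated between its GFP and Tom libraries by 0.0838 to 0.591 in HF-SCs and 0.242 to 0.687 in b-KCs, and between the Co cell types by 0.204 to 0.317. Fits with the mouse as a random or fixed block were made beside the main one.

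The 10 genes and all lists were chosen with earlier results of these data known. The rule for names was all 10 genes with every library, their log2 changes only where they passed, Jun, Junb and Fos, the 5 genes most alike and up to 2 rises and 2 falls per list. Marker genes, and values of list genes in further groups such as that of Klf2 in non-mutant HF-SCs, were chosen after they were seen. Depth was inferred from FPKM steps of 7744 genes with 1 annotated transcript, of whose low values 76.3% to 81.7% lay within 0.1 of a whole read, so it includes any scaling by the authors. Reads were not collapsed to molecules, so the floor of 3 reads covers counting error only. Gene positions are from the NCBIM37 annotation and promoters from RefSeq (GRCm38.p6), and the builds were not mixed. Plots were made with Python 3.11.15 and matplotlib 3.10.9. Alternatives were another pseudocount, no filter, rescaled libraries, other thresholds, no trend, fits of only the groups compared, leaving out each mouse in turn and the mouse block.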

Additional observations from a re-analysis of the deposited data

Results flagged for a closer look

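The changes against Co differed between HF-SCs and b-KCs, by limma's interaction test, for Egr2 in GFP by 1.50 and in Tom by 1.78 on the log2(FPKM + 1) scale, for Egr3 by 1.35 and 1.58, and for Ier3 in Tom by 1.47, each higher in HF-SCs. Of these, Egr2 and Egr3 in Tom passed with each mouse left out in turn. The other 3 were lost without some mice, Egr2 in GFP without mouse 810, 815, 825 or 828 (adjusted p from 0.0774 to 0.106), Egr3 in GFP without 815 (adjusted p = 0.0616), and Ier3 in Tom without 814, 815 or 825 (adjusted p from 0.063 to 0.101). In Tom, Egr2 and Egr3 passed as lower than Co in b-KCs (log2 changes of -1.94 and -1.10) and did not pass in HF-SCs. Ier3 passed as higher in HF-SCs (1.13) and did not pass in b-KCs. All 3 results in Tom use HF-SC Tom, whose libraries also held the highest endothelial markers, and the part of these was not tested.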

How the results depend on the processing

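No called value changed sign under any alternative run. Rescaled libraries, a pseudocount of 0.1 and eBayes without trend left all 36 calls of single genes in place, and no call was lost with the mouse block. The numbers passing against Co, of 10 genes, ranged with each mouse left out from 2 to 9 in mutant HF-SCs, 4 to 9 in non-mutant HF-SCs, 3 to 10 in mutant b-KCs and 9 to 10 in non-mutant b-KCs. Between GFP and Tom they ranged from 0 to 2 in HF-SCs and 0 to 3 in b-KCs, and for the interactions from 0 to 3 in GFP and 2 to 7 in Tom. In the same order 3.33% to 22.9%, 0.00784% to 6.67%, 3.35% to 30.8% and 7.04% to 25.4% of all genes tested passed, each highest without mouse 817. With the mouse as a random block 1 gene passed between GFP and Tom in HF-SCs, 3 in b-KCs (3 also with a fixed block), 4 between the cell types in Co (5 with a fixed block) and 7 in the Tom interaction. Of all genes tested, 13.6%, 4.82% (3.72% with a fixed block), 60% (66.9% with a fixed block) and 23.9% passed in the same order. With only the groups compared in the fit, 5 passed between the cell types in Co and 0 between GFP and Tom in b-KCs, against 63.6% and 0.0235% of all genes tested. At an adjusted p under 0.01, 3 passed in HF-SC GFP, 2 in b-KC GFP and 1 in the GFP interaction. With a log2 change of at least 2 required as well, 3 passed in b-KC Tom, and 0 in either HF-SC fraction, mutant b-KCs, either interaction, GFP against Tom in b-KCs and the cell types in Co. The cause of these differences was not tested, apart from the stricter thresholds. With 3 mice a group, and DKO* mice that differ among themselves, small changes could be missed. Depth was not limiting for these genes.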
